A study of Mus musculus with 29 samples.

Results

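Malat1 and Neat1 are neighbouring genes of mouse chromosome 19 that give long noncoding RNAs retained in the nucleus. The locus was taken as the stretch of mm9 chromosome 19 between 5.76 and 5.90 Mb, which holds both genes and a strong peak of the glucocorticoid receptor (GR) near 5.85 Mb. All ChIP-seq peaks and all ChIP-exo borders centred in this stretch of 140 kb were its members. These were 49 of 107997 peaks, of which 17 were GR peaks and 32 were C/EBPβ peaks, and 216 of 255667 borders. The locus was chosen by its genes and by the score of the GR peak of wild-type livers at 6pm, so the height of that peak is given as a description and supports nothing.

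Livers came from GRdim mice, which carry a GR mutation known to impair dimerization of the receptor, or from their GR+/+ littermates, called wild type (WT) here. All were males of 12 weeks, crossed back to BALB/c for at least 4 generations and kept on a cycle of 12 h light and 12 h dark. Tissue was collected at 6am, as the light phase began, at 6pm, as the dark phase began, or at 6am after 24 h with a subcutaneous pellet of prednisolone at 12 mg/kg. Both genotypes gave GR lists by ChIP-seq and by ChIP-exo under all 3 conditions, and C/EBPβ lists by ChIP-seq came from WT livers alone. Each of the 15 lists was 1 pool of 2 replicates per the labels, so no spread between animals can be given and no p-value is printed. The 95% intervals cover the counting of tags or peaks in these libraries and nothing else. Whole liver was used, so fewer cells with a bound site and weaker binding in each cell cannot be told apart. The labelled tissue was not checked against marker genes, because these lists hold binding and no expression.

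GR is the nuclear receptor for corticosterone, the glucocorticoid that rises in mice before the active dark phase, and for synthetic ligands such as prednisolone. It binds inverted repeats of a short motif as a dimer and can also bind single copies of that motif. C/EBPβ is a basic leucine zipper factor abundant in hepatocytes and often found beside GR in liver chromatin. Malat1 RNA accumulates in nuclear speckles, where splicing factors are stored, and its 3′ end is cut to release a small tRNA-like RNA, mascRNA. Neat1 RNA is the scaffold of paraspeckles. In ChIP-exo an exonuclease trims the precipitated DNA up to the crosslinked protein, so a bound protein leaves a border of tags on the plus strand at its left side and on the minus strand at its right side.

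In the RefSeq table of assembly GRCm38.p6 the genes sorted by start position are Malat1, Mascrna, Neat1, Frmd8, Slc25a45, Tigd3 and Dpf2. This order does not tell whether 1 gene lies inside another. The table is of another build than the peaks, so that these limits hold both genes in mm9 was taken as given and not checked. Peaks are therefore given by mm9 position and by distance from the strongest peak, and none is assigned to a gene, an exon, an intron or a promoter. Of the members, 1 of 2 was matched in the RefSeq promoter table. The Malat1 sequence is shown because it is the start of the gene that names the locus, from 250 bases before the start of transcription in lower case to the first 50 transcribed bases in capitals. It is read 5′ to 3′ along the minus strand of chromosome 19 in GRCm38.p6, and whether a peak covers it was not tested.

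Malat1 promoter: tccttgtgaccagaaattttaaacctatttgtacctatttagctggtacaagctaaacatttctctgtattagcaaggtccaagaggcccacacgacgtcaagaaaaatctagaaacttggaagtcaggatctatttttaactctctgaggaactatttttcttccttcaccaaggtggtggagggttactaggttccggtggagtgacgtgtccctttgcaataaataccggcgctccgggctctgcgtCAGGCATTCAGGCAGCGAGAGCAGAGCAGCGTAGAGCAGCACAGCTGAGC

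These 300 bases were 47% G or C and held 10 CG dinucleotides. A search of both strands for AGAACA, the single GR motif, found 0 matches in this window, while 18.97% of the 32851 promoters of the table held it. The full inverted repeat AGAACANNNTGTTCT, which contains that motif, also gave 0 matches and was present in 3 of all promoters. The C/EBP motif TTGCNNAA gave 0 matches and was present in 10.8% of promoters. The search says only that these letters are absent from these bases.

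Overlapping peaks of the 9 ChIP-seq lists were joined into 18 regions. GR was listed in 9 of them, 3 with GR alone and 6 with C/EBPβ as well, and 9 held C/EBPβ alone. Only 1 region held a GR peak in all 6 GR lists. It spanned chr19:5849938-5850373 and is called the strongest region below. A further 3 regions held GR at 6pm in both genotypes and in no other GR list, and 5 held GR at 6pm in WT only.

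The outermost peaks inside the limits were C/EBPβ peaks, at chr19:5793203-5793402 with a score of 2.19 after prednisolone and at chr19:5889332-5889531 with a score of 2.93 at 6pm. The nearest peaks beyond the limits were a C/EBPβ peak at chr19:5689552-5689751, scoring 3.83 at 6pm, and a GR peak of WT at chr19:5912760-5912959, scoring 5.77 at 6pm.

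By list, WT had 1 GR peak of 5781 in the locus at 6am, 9 of 14270 at 6pm and 1 of 4304 with prednisolone. The GRdim lists placed 1 of 3183, 4 of 7440 and 1 of 3208 peaks there. Of the 9 WT peaks at 6pm, 8 were absent from the WT 6am list and 8 from the WT prednisolone list. Over the whole 6pm list, 60.5% and 73.3% of peaks were absent in the same way. In GRdim, 4 of 4 peaks at 6pm had no overlapping peak at 6am, against 60.2% over the list. Of the WT 6pm peaks of the locus, 6 of 9 had no overlapping GRdim 6pm peak, where 50.6% of all WT 6pm peaks had none. The 1 WT peak at 6am and the 1 after prednisolone overlapped a GRdim peak of the same condition, which 52.5% and 51.5% of the peaks of those lists did not. So few peaks give no basis for setting the locus apart from the lists.

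**Figure D1:**
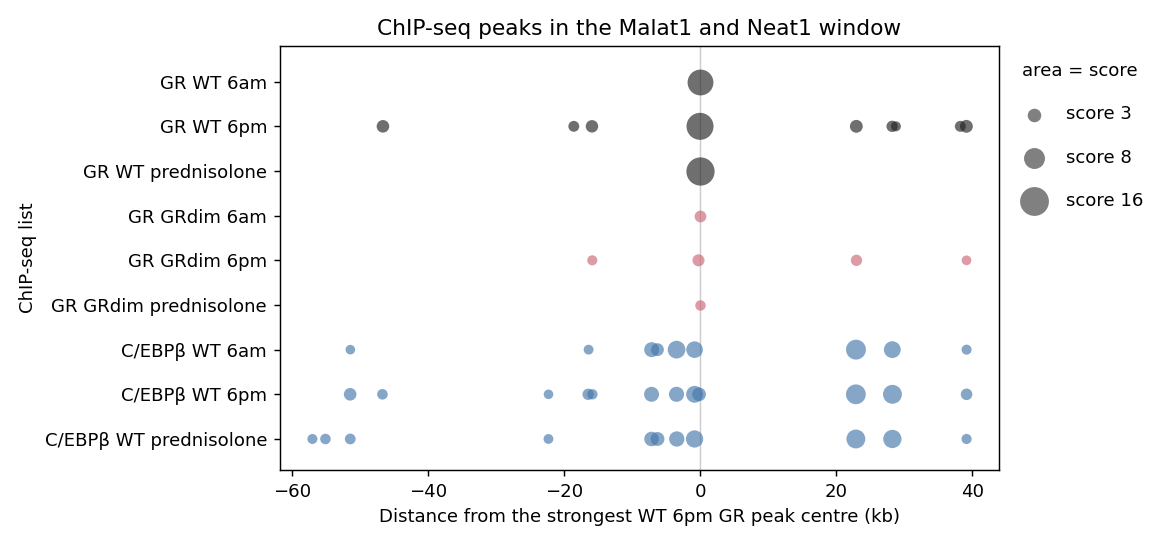
ChIP-seq peaks of the locus in the 9 lists (rows), by distance in kb from the centre of the strongest WT 6pm GR peak, with the area of a point in proportion to the score the authors gave the peak. GR WT is black, GR GRdim red and C/EBPβ blue; only at distance 0 do all 6 GR lists have a peak within 226 bp of that centre, and the 3 WT points there have scores of 14.62 to 17.49.

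At the strongest region GR was near the top of each WT list and in the middle of each GRdim list. The WT score was 14.62 for 6am, 16 for 6pm and 17.49 for prednisolone, while the medians of those lists were 2.89, 3.36 and 2.93. It ranked 43 of 5781, 93 of 14270 and 18 of 4304. In GRdim the peak scored 3.04, 3.20 and 2.42 under the same conditions, beside list medians of 2.71, 2.88 and 2.60. Those scores exceeded 63.0%, 59.97% and 37.9% of the peaks of their own lists, whereas the WT scores exceeded 99.2%, 99.3% and 99.6%. The scores are the authors' own, no label gives their unit, and they are ranked within lists only.

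The listed centre of the WT peak hardly differed between conditions, and that of the GRdim peak did, mostly through its 6pm peak. WT peaks lay at chr19:5850167-5850366 at 6am, chr19:5850164-5850363 at 6pm and chr19:5850174-5850373 after prednisolone, so their centres spanned 10 bp. GRdim peaks lay at chr19:5850152-5850351, chr19:5849938-5850137 and chr19:5850111-5850310, a span of 214 bp. The GRdim 6pm ChIP-exo library held 88 tags within 100 bp of the WT 6pm centre. Within 100 bp of the GRdim 6pm centre it held 67 tags. Over 1627 regions with a peak in all 6 lists within 500 bp, the median span was 26 bp in WT and 28 bp in GRdim. These regions were not matched for score. The WT span at the locus exceeded 12.7% of these regions and the GRdim span exceeded 97.2%, with 45 regions spanning at least as much in GRdim.

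Between genotypes the GRdim centre lay to the left of the WT centre in each condition, by 15 bp at 6am, 226 bp at 6pm and 63 bp after prednisolone. Over WT peaks with a GRdim centre within 1000 bp, the median distance was 20 bp at 6am, 17 bp at 6pm and 20 bp after prednisolone. The 6am distance was larger than 39.2% of them, the 6pm distance than 93.3% and the prednisolone distance than 88.4%. Distances of at least 200 bp were found for 5.9% (6am), 6.89% (6pm) and 4.4% (prednisolone) of such peaks. The 6pm peaks of the genotypes thus did not overlap, although both lay in the same region. Among the 507 WT 6pm peaks that scored at least 10, 484 overlapped a GRdim peak. The WT 6pm peak of this region was 1 of 6 of those 507 with the nearest GRdim centre 200 to 1000 bp away. The locus was chosen by the score of that peak, so this describes it and supports nothing. With centres taken from ChIP-exo tags within 200 bp in place of the peaks, the distance at 6pm was 29.6 bp to the left, and at 6am it turned to 39.7 bp to the right.

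**Figure D2:**
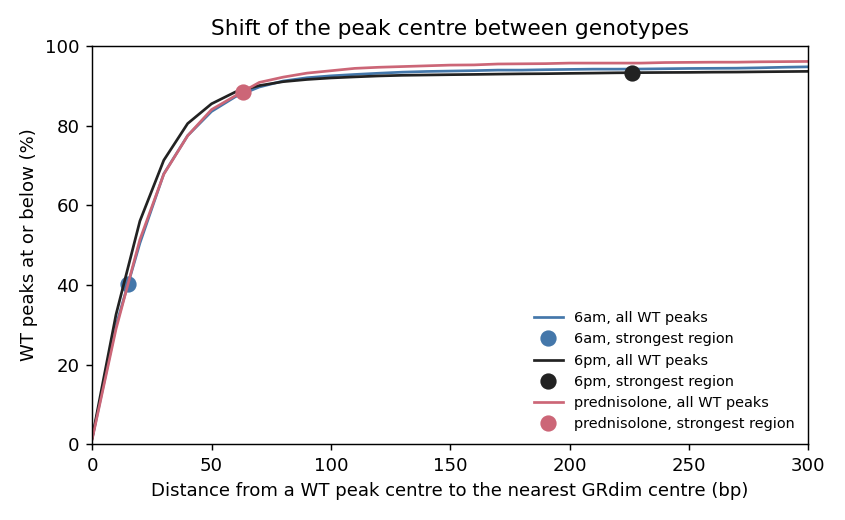
Cumulative percentage of WT GR peaks (vertical) by distance in bp from their centre to the nearest GRdim centre (horizontal), over WT peaks with a GRdim centre within 1000 bp; the axis ends at 300 bp. The large points mark the strongest region at 15 bp (6am), 226 bp (6pm) and 63 bp (prednisolone), of which the 6pm point lies on the flat part of the curve.

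The 4 borders of the strongest region with the most tags in the WT prednisolone library are called its leading borders. They stood at the same bases in all 3 WT libraries within 1 bp. Their starts were 5850257 or 5850258 on the plus strand, 5850268 on the minus strand, 5850275 or 5850276 on the plus strand and 5850288 on the minus strand. At 6am in WT they held 231, 86, 185 and 313 tags, equal to 4.15, 1.54, 3.32 and 5.62 RPM (tags scaled to the size of the library, as reads per 1 M). At 6pm in WT they held 185, 83, 127 and 251 tags, or 4.29, 1.93, 2.95 and 5.82 RPM. After prednisolone they held 537, 162, 345 and 668 tags, or 9.82, 2.96, 6.31 and 12.2 RPM. The outer 2 borders were thus the highest ones in every WT library. After prednisolone the right outer border ranked 15 and the left outer border 22 among the 48351 nuclear borders of that library.

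On the same strand within 2 bp, GRdim listed 1, 3 and 1 of these 4 borders at 6am, at 6pm and after prednisolone, all at low counts. The positions were chosen in WT, so these matches describe the libraries and support nothing. At 6am only the right outer border was listed, with 12 tags (0.379 RPM) and 1 bp from its WT position. At 6pm the left outer, left inner and right outer borders were listed with 17, 14 and 24 tags (0.388, 0.320 and 0.548 RPM), where the left inner border is the minus-strand one at 5850268. After prednisolone only the left outer border was listed, with 17 tags (0.376 RPM). No GRdim library had the right inner plus-strand border of WT, although at 6pm a plus-strand border of 15 tags started nearby, at 5850282. The lists leave out weak borders, so a border that is not listed may still be present at a low level. No list holds a border of fewer than 3 tags, and few come near that count. Within 300 bp of the WT 6pm centre, the lowest GRdim border held 7 tags, at 6pm. It already ranked 33302 of the 34812 nuclear borders of that library. Tags of unlisted borders are missing from the sums, ratios and intervals below.

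The distance between the strongest plus-strand and minus-strand borders within 100 bp of the centre of the WT peak was 31 bp at 6am, 31 bp at 6pm and 30 bp after prednisolone in WT. Pairs 29 to 31 bp apart made up 9.12%, 6.18% and 13.1% of the WT peaks with borders on both strands in these conditions. Inside the outer pair, the left inner border lay 10 or 11 bp from the left outer one, and the plus-strand border at 5850275 or 5850276 lay 12 or 13 bp before the right outer one. In GRdim the strongest pair was 32 bp apart at 6pm and 40 bp at 6am, where its borders held 9 and 12 tags. After prednisolone GRdim had no minus-strand border listed within 100 bp of the WT centre. Around its own peak centre the strongest pair was -141 bp apart, the minus-strand border at 5850116 with 8 tags coming before the plus-strand one. Around the GRdim centres of 6am and 6pm the GRdim pairs were 40 and -57 bp apart. Over all GRdim peaks with both borders, taken around their own centres, 2.39%, 2.31% and 2.24% had pairs 29 to 31 bp apart.

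In WT the 4 leading borders took 58.6% (6am), 75.0% (6pm) and 70.3% (prednisolone) of the listed tags within 100 bp. They were chosen by their tags in WT, so these shares are a description only. Of the other WT borders within 100 bp, 8 of 10 of the prednisolone library and 2 of 6 of the 6pm library had a counterpart at 6am, within 2 bp and on the same strand. Of those 6 borders at 6pm, 3 had a counterpart after prednisolone. The 6pm library listed 10 borders within 100 bp, against 17 at 6am and 14 after prednisolone. Whether the lower borders differ at 6pm or were only not listed cannot be told from such counts. In GRdim, 1 of 2 other borders at 6am had a counterpart in WT of the same condition, and 0 of 3 at 6pm and 0 of 2 after prednisolone had one.

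**Figure D3:**
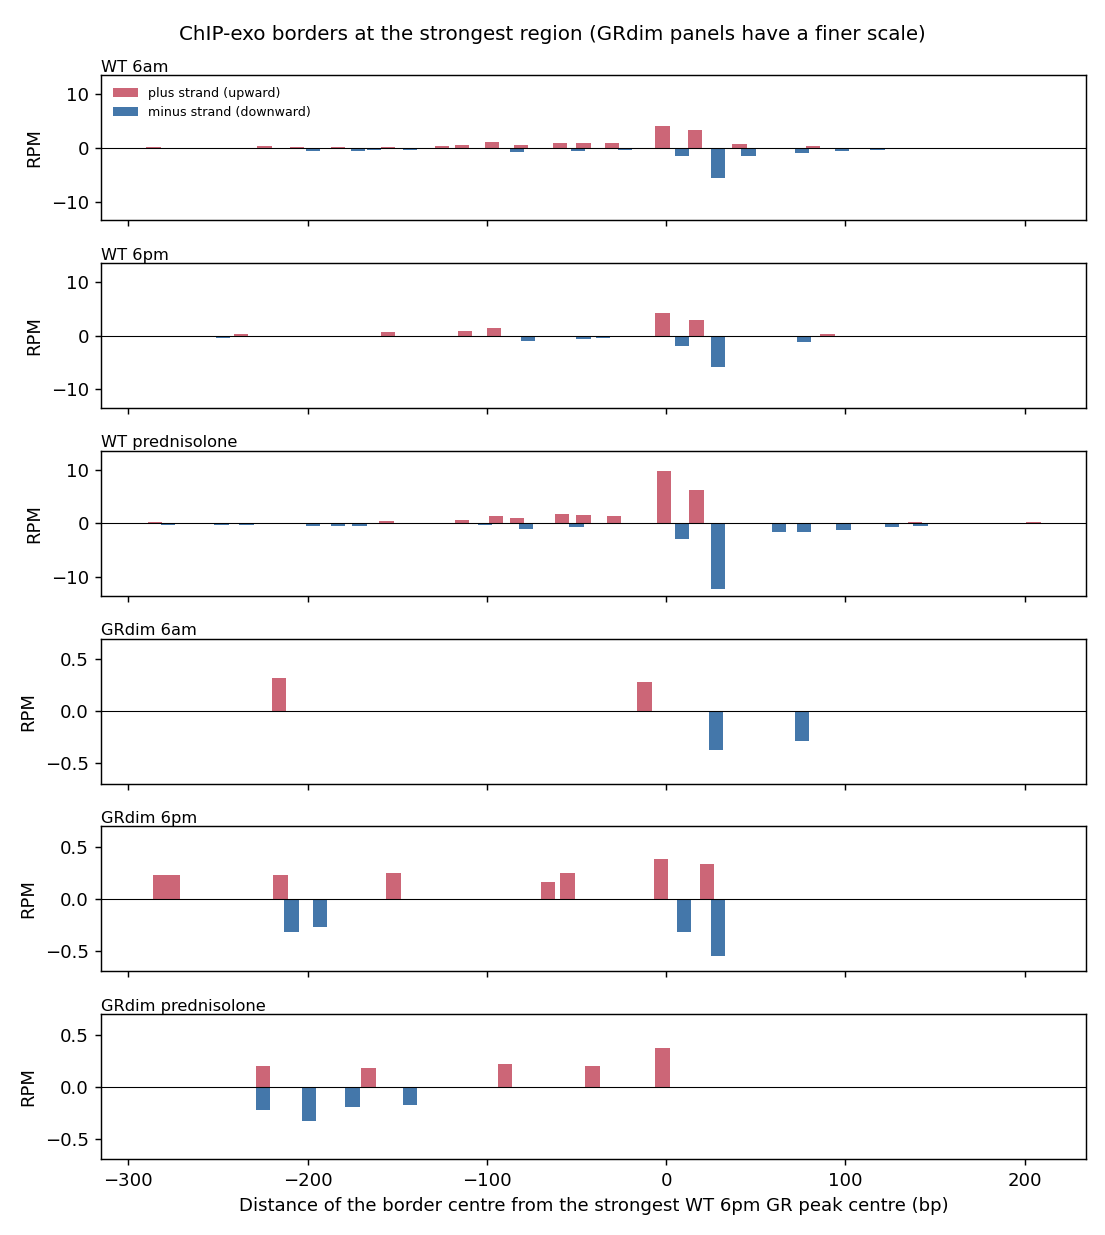
ChIP-exo borders of the strongest region in the 6 libraries, by distance in bp of the border centre from the WT 6pm peak centre (horizontal) and RPM (vertical, plus-strand borders red and upward, minus-strand borders blue and downward). The GRdim panels have a finer vertical scale; the 4 leading WT borders stand between -2 and 29 bp, and GRdim at 6pm and after prednisolone has 6 borders each to the left of -130 bp.

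The total over borders within 100 bp of the WT 6pm centre was far higher in every WT library than in every GRdim library. In WT, 1391 tags were listed at 6am, 861 at 6pm and 2434 after prednisolone. These were 25.0 RPM (95% exact Poisson interval 23.7 to 26.3), 20.0 RPM (18.7 to 21.4 RPM) and 44.5 RPM (42.8 to 46.3 RPM). In GRdim, 30, 88 and 36 tags were listed, or 0.948 RPM (0.640 to 1.35 RPM), 2.01 RPM (1.61 to 2.47 RPM) and 0.797 RPM (0.558 to 1.10 RPM). The intervals of the genotypes did not meet in any condition, which compares pooled libraries and not animals.

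As a ratio, WT exceeded GRdim 26.3-fold at 6am (95% interval 18.4 to 39.2), 9.94-fold at 6pm (7.98 to 12.5) and 55.8-fold after prednisolone (40.2 to 79.9). Ratios of at least 4-fold were found at 28.4%, 23.8% and 19.7% of the WT peaks with listed borders in both libraries. The median ratio over those peaks was 2.37, 1.93 and 1.23, and the strongest region exceeded 98.5%, 93.4% and 99.3% of them. At least as large a ratio was found at 44 of 2984, 450 of 6771 and 21 of 2856 peaks. Among peaks with at least 100 tags in both libraries together, it exceeded 97.7% of 1944, 87.1% of 3317 and 98.9% of 1955. That limit is far below the tags of this region, which held 861 or more in each WT library. The locus was chosen by the score of its WT 6pm peak, and a high WT count raises the ratio. These shares therefore describe the region and support nothing. A further 2654, 4187 and 1242 WT peaks had borders listed in WT only, so that no ratio could be formed and they are not part of these shares. The libraries differed in how many of their tags lay in listed borders. With libraries scaled to the tags in listed nuclear borders, the ratios were 6.86, 3.52 and 27.8, still higher in WT. Within 300 bp in place of 100 bp, the ratio was 6.34 at 6pm and 23.9 after prednisolone.

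**Figure D4:**
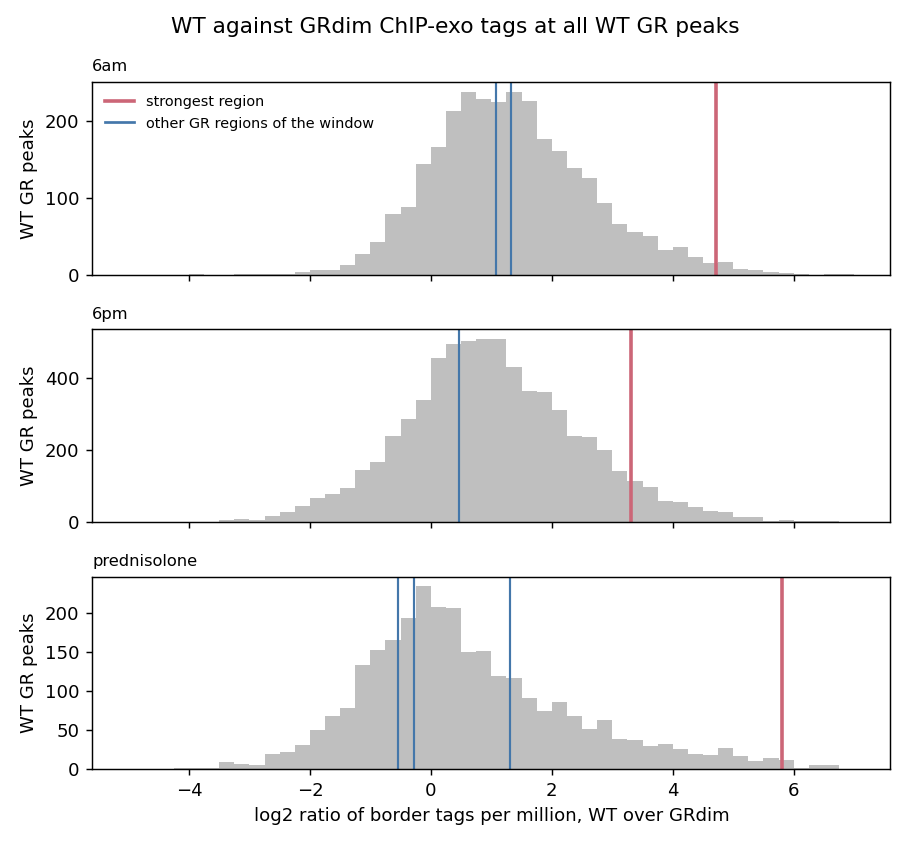
Number of WT GR peaks (vertical) by log2 ratio of ChIP-exo border RPM, WT over GRdim (horizontal), for the 3 conditions, over WT peaks with listed borders in both libraries. The red line marks the strongest region (26.3-fold, 9.94-fold and 55.8-fold), to the right of most peaks in each panel, and the blue lines the other GR regions of the locus with tags in both libraries.

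Across conditions the strongest region had its highest RPM value after prednisolone in WT and at 6pm in GRdim. In WT the RPM value after prednisolone was 1.78 times that at 6am (1.67 to 1.91), while the median over WT prednisolone peaks was 0.915 and 20.6% of peaks were at least 2-fold higher. At 6pm it was 0.80 times that at 6am (0.734 to 0.871), where the median of WT 6pm peaks was 1.57 and 36.2% were at least 2-fold higher. That background holds peaks listed at 6pm, of which 60.5% were absent from the WT 6am list. In GRdim the 6pm value was 2.12 times that at 6am (1.39 to 3.32), beside a median of 1.77. The GRdim prednisolone value was 0.840 times that at 6am (0.503 to 1.41), an interval that includes 1, beside a median of 1.71. Around the GRdim prednisolone centre the direction was the other, with 0.974 RPM after prednisolone and 0.664 RPM at 6am in GRdim.

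To the left of the leading borders, between 300 and 130 bp before the WT 6pm centre, the genotypes differed less. This flank held 186 tags at 6am (3.34 RPM), 71 at 6pm (1.65 RPM) and 176 after prednisolone (3.22 RPM) in WT. In GRdim it held 10 tags (0.316 RPM), 67 tags (1.53 RPM) and 59 tags (1.31 RPM). Of the tags between 300 bp before and 150 bp after the centre, the flank took 11.1%, 7.34% and 6.43% in WT. In GRdim it took 25.0% (exact 95% interval 12.7% to 41.2%), 43.2% (35.3% to 51.4%) and 62.1% (51.6% to 71.9%). The flank limits were set after the border positions had been seen, so these shares describe the profile only. The centre of the GRdim 6pm peak, 226 bp to the left, lies inside this flank.

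The strongest region also held a C/EBPβ peak, at 6pm only. It spanned chr19:5850022-5850221, scored 4.12, exceeded 56.2% of its list and was centred 142 bp to the left of the WT GR centre, with 58 bp of overlap. At 6am and after prednisolone the nearest C/EBPβ centres lay 805 and 813 bp to the left of the GR centre. They belonged to a C/EBPβ region at chr19:5849361-5849562 that was listed under all 3 conditions, with scores of 6.03, 6.24 and 6.53. GR borders were nearly lacking there, with 1 listed in the 6 libraries, of 10 tags in WT after prednisolone.

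The GR region with the next largest number of tags lay 46.6 kb to the left, at chr19:5803494-5803767. Its GR peak was listed for WT at 6pm alone and scored 3.47, beside a C/EBPβ peak at 6pm that scored 2.45. Its borders were nevertheless listed in all 6 libraries. WT held 271 tags at 6am (4.86 RPM), 68 at 6pm (1.58 RPM) and 115 after prednisolone (2.10 RPM), and GRdim held 73 tags (2.31 RPM), 50 tags (1.14 RPM) and 115 tags (2.55 RPM). The only condition with a GR peak in the list thus had the fewest tags of the WT libraries. WT was 2.11 times GRdim at 6am (1.62 to 2.77), 1.38 times at 6pm (0.945 to 2.03) and 0.826 times after prednisolone (0.632 to 1.08).

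A plus-strand border starting between 5803654 and 5803657 led this region in 4 libraries. It held 43 tags (0.772 RPM) in WT at 6am and 32 tags (0.585 RPM) in WT after prednisolone. In GRdim it held 24 tags (0.759 RPM) at 6am and 23 tags (0.509 RPM) after prednisolone. The RPM values of the genotypes were thus close at this border, unlike at the strongest region. The strongest plus and minus borders gave no common spacing, with distances of 90, 27 and 87 bp in WT and 16, 141 and -32 bp in GRdim, where a negative value means that the minus-strand border came first.

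On the right side of the locus, the GR peaks with the highest C/EBPβ scores had few GR tags. The region at chr19:5873066-5873352, 23.0 kb to the right, scored 3.62 for GR in WT and 2.81 in GRdim at 6pm. The C/EBPβ scores of 8.68 (6am), 8.58 (6pm) and 7.83 (prednisolone) were the highest of the locus in each list. GR borders there held 24 tags in WT at 6pm and 15 tags in GRdim after prednisolone, and none was listed in the other 4 libraries. The region at chr19:5878390-5878638 scored 2.81 for GR in WT at 6pm and 6.19, 7.84 and 7.32 for C/EBPβ, and no GR border was listed in any library. A GR peak without C/EBPβ at chr19:5878947-5879146, scoring 2.19 in WT at 6pm, had no listed border either.

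Farther right, the peak at chr19:5888414-5888613 had GR without C/EBPβ and scored 2.63 in WT at 6pm. Its borders held 72 tags (1.67 RPM) at 6pm and 10 tags (0.179 RPM) at 6am in WT, and none was listed in the other libraries. The 6pm value was 9.30 times the 6am value (4.78 to 20.2), and the strongest pair at 6pm was 11 bp apart with 16 tags on each border. Most of its listed tags thus lay in the library of the condition in which the peak was listed.

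The region at chr19:5889308-5889531, 39.1 kb to the right, scored 3.62 for GR in WT and 2.07 in GRdim at 6pm. Its C/EBPβ peaks scored 2.21, 2.93 and 2.26. Tags numbered 62 at 6am (1.11 RPM), 38 at 6pm (0.881 RPM) and 19 after prednisolone (0.347 RPM) in WT, and 14 at 6am (0.443 RPM) and 23 after prednisolone (0.509 RPM) in GRdim, with none listed at 6pm. A minus-strand border starting at 5889436 or 5889437 led in 5 of the 6 libraries, with 13 to 19 tags. Its position was thus the same within 1 bp in both genotypes.

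Left of the strongest region, a pair of weaker GR regions remained. The one at chr19:5834285-5834548 scored 3.40 for GR in WT and 2.25 in GRdim at 6pm, with a C/EBPβ peak of 2.34 at 6pm. Its borders held 23 tags in WT at 6am, 27 in WT after prednisolone, 18 in GRdim at 6pm and 9 in GRdim after prednisolone. None was listed in GRdim at 6am or in WT at 6pm, although its higher GR peak was that of WT at 6pm. The other, at chr19:5831614-5831813, scored 2.59 for GR in WT at 6pm and had 17 tags at 6am and 15 at 6pm in WT, with no border listed in GRdim.

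**Figure D5:**
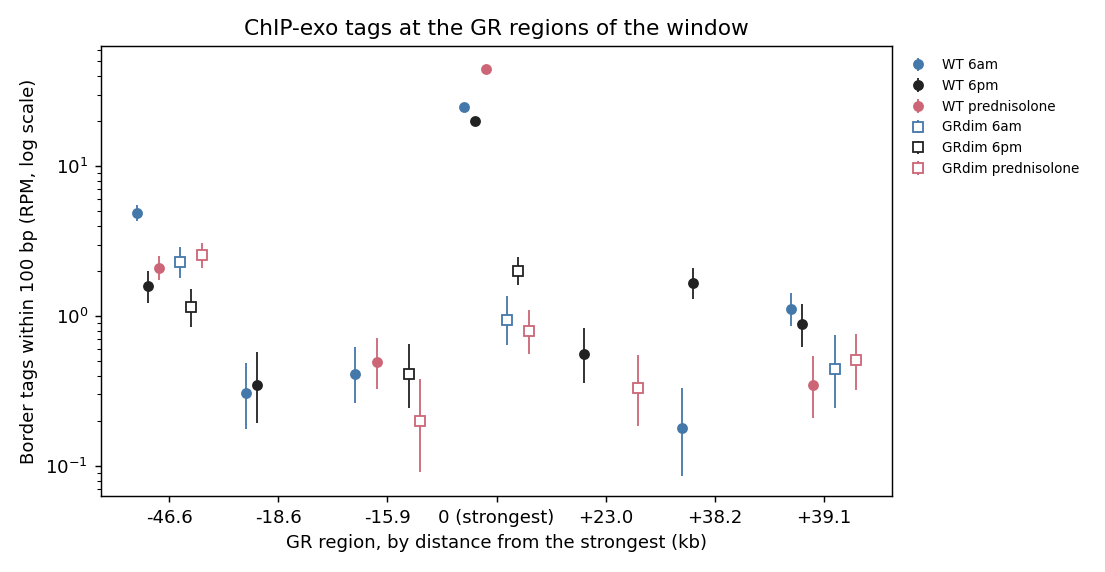
ChIP-exo tags within 100 bp of the WT 6pm peak centre (RPM, log scale) for the 7 GR regions of the locus with listed borders, in order of distance from the strongest; filled circles are WT, open squares GRdim, and bars are 95% exact Poisson intervals of counting. A missing point means that no border was listed; the WT points of the strongest region, at 20.0 to 44.5 RPM, lie above all other points.

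C/EBPβ was listed in 15 regions, 7 of them under all 3 conditions. Of the 9 WT GR peaks at 6pm, 6 overlapped a C/EBPβ peak (66.7%, exact 95% interval 29.9% to 92.5%), against 83.2% over the whole list. Peaks of a single locus are not replicates, so the interval is no test of the locus against the list. Centres of these 6 pairs lay between 24 and 142 bp apart. The single WT GR peak at 6am and the single one after prednisolone, both at the strongest region, overlapped no C/EBPβ peak, while 79.7% and 75.7% of the peaks of those lists did. The strongest GR region thus had an overlapping C/EBPβ peak at 6pm and not in the other conditions.

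Among the regions with C/EBPβ and no GR peak, the one at chr19:5846711-5846946, 3.45 kb to the left of the strongest GR region, had the highest 6am score. Its scores were 6.87 at 6am, 5.01 at 6pm and 5.13 after prednisolone, and in the latter conditions the region at chr19:5849361-5849562 described above scored higher. GR borders were listed there in WT, with 29, 34 and 25 tags, and in no GRdim library. The region at chr19:5843035-5843254 scored 4.90, 4.90 and 4.63, and its neighbour at chr19:5843907-5844114 scored 3.62 at 6am and 4.2 after prednisolone. Neither had a listed GR border. The region at chr19:5798750-5798976 scored 2.01, 3.49 and 2.55 and had none either.

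The other 4 regions with C/EBPβ alone scored between 2.01 and 2.82, and 1 of them, at chr19:5833722-5833988, had GR borders. These held 23 tags in WT at 6am, 16 in WT after prednisolone and 30 in GRdim at 6pm. By condition, 3 of 9 C/EBPβ peaks without a WT GR peak had a WT GR border within 100 bp at 6am, 1 of 6 at 6pm and 3 of 11 after prednisolone. Over the lists these shares were 25.7%, 10.8% and 22.5%.

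Of the 216 borders, 94 lay near the strongest region and held 5548 of the 7174 tags listed in the locus. Another 76 lay near other GR peaks, 19 near C/EBPβ peaks alone and 27 near no peak. The strongest region took 73.3%, 78.6% and 87.7% of the listed tags of the locus in WT and 28.2%, 58.3% and 34.4% in GRdim. Total listed tags of the locus came to 39.9, 28.6 and 55.5 RPM in WT and 4.49, 6.07 and 6.11 RPM in GRdim. By tags over RPM, the WT libraries held 43.1 to 55.7 M tags and the GRdim libraries 31.6 to 45.2 M.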

How the data were processed

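GR and C/EBPβ binding was measured in mouse liver in 9 ChIP-seq lists, each a pool of 2 replicates per the labels, and GR in 6 ChIP-exo lists. Per the submitters' processing notes, Bowtie and HOMER were used with mm9; the sources used here give neither the step each did nor its version. Each ChIP-seq file lists intervals 200 bp wide with 1 score per peak, set by the authors on a scale that no header names. Per the file headers, each ChIP-exo file lists borders 10 bp wide with a count of tags and an RPM value, both as deposited. A deposited height signal and other deposited values per border were not used. The 2 RNA polymerase II and 12 input samples were not analysed here.

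Library sizes were taken as tags divided by RPM. Overlapping peaks were joined into regions, borders were assigned to a peak where their centre lay within 100 bp, and positions count from 1. The distance of a border pair is the minus-strand centre less the plus-strand centre. Tags have exact Poisson intervals, ratios exact conditional intervals and shares exact Clopper-Pearson intervals, all for counting error only. Tags are PCR products without molecular identifiers and need not be independent molecules. Each background was computed over the whole list. The rule for named regions takes every GR region and the 5 regions with C/EBPβ and no GR that score highest, with the leading border on each strand. The locus, its members and these choices were made with earlier results of these data known. Alternatives were other distances, centres, score limits and scalings. The code was tested on simulated data. Software was matplotlib 3.10.9, scipy 1.17.1, pandas 2.3.3 and numpy 2.4.6 under Python 3.11.15.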

Additional observations from a re-analysis of the deposited data

Results flagged for a closer look

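At 3 regions the ratio of ChIP-exo RPM values between conditions lay on one side of 1 in WT and on the other in GRdim. No other GR region of the locus had a ratio of prednisolone to 6am in both genotypes. The medians of that ratio also lay on opposite sides of 1, at 0.915 over WT and 1.71 over GRdim prednisolone peaks. The strongest region had the reverse order, and the others had the order of the medians. How often single peaks of the lists differ in this way was not counted. Tags were taken within 100 bp of the WT 6pm peak centre. Each group is 1 pooled library, so these differences were not tested, and every GRdim ratio of prednisolone to 6am has a counting interval that includes 1. At the strongest region the ratio of 6pm to 6am was 0.80 in WT (95% counting interval 0.734 to 0.871) and 2.12 in GRdim (1.39 to 3.32). At the same region the ratio of prednisolone to 6am was 1.78 in WT (1.67 to 1.91) and 0.840 in GRdim (0.503 to 1.41). Around the GRdim prednisolone centre, GRdim held 0.974 RPM after prednisolone (0.708 to 1.31) and 0.664 RPM at 6am (0.411 to 1.01). The GRdim direction thus depended on the centre used. At the region 46.6 kb to the left of the strongest one, the ratio of prednisolone to 6am was 0.432 in WT (0.345 to 0.540) and 1.10 in GRdim (0.816 to 1.5). At the region 39.1 kb to the right of the strongest one, that ratio was 0.312 in WT (0.176 to 0.529) and 1.15 in GRdim (0.567 to 2.42), from 14 to 62 tags a library.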

How the results depend on the processing

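Of 43 alternatives with a value to compare, 25 kept it within the set limits, 15 moved it and 3 turned its sign; the cause was not tested. The count of 17 GR peaks fell to 3 with scores of at least 4, to 9 with the upper 50% of each list by score and to 6 with lists of equal length. With centres from border tags, the shift was 39.7 bp at 6am, -29.6 bp at 6pm and -90.7 bp after prednisolone, against -15, -226 and -63 bp from peaks. The tag ratio of WT to GRdim stayed above 1 in every alternative run. Scaled to the tags in listed nuclear borders it was 6.86 at 6am, 3.52 at 6pm and 27.8 after prednisolone. Within 300 bp it was 6.34 at 6pm and 23.9 after prednisolone. Around the centre of each genotype, an alternative chosen after seeing the data, it was 13.1 at 6pm. Taking the closest opposite borders, pairs were 5 bp apart in WT at 6am, 11 bp at 6pm and 5 bp after prednisolone, and 6 bp in GRdim at 6pm. Around the GRdim 6pm centre the pairs were -92 bp in WT and -57 bp in GRdim. After prednisolone GRdim gave a pair only around its own centre, of -141 bp. The share of WT 6pm GR peaks with C/EBPβ was 33.3% to 66.7%. A minimum of 20 tags left no pair in GRdim in any condition. No replicate could be left out, because each list is a pool. No paired analysis was possible because replicates were pooled before the lists were made. Weak borders are not listed, and the lowest GRdim border within 300 bp of the WT 6pm centre held 7 tags. This limits what can be seen in GRdim and leaves tags out of its sums.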

Other observations

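The 27 borders that lay near no peak fell into 11 groups. The group seen in most libraries, at chr19:5802621-5802740, had 5 borders of 9 to 12 tags in 4 of the 6 libraries. The group with the most tags on a border, at chr19:5850377-5850473, had 7 borders of 10 to 39 tags in 2 libraries and lies just right of the strongest GR region.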
